A study of Mus musculus with 24 samples.

Results

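Integrins are the main receptors by which cells hold the extracellular matrix, and laminins are the glycoproteins around which basement membranes are built. The 37 protein-coding mouse genes with the symbols Itga, Itgb, Lama, Lamb or Lamc followed by a chain number or letter were taken from the GENCODE vM1 annotation, out of 37310 genes in the data. They were 26 integrin genes (18 alpha and 8 beta chains) and 11 laminin genes (alpha, beta and gamma chains). The choice used the symbols and no measured value, but it was set with earlier results of these data known.

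RNA sequencing had been done on stromal vascular fraction cells, the mixed cells left after collagenase digestion of fat. The white cells (WAT) came from the inguinal depot and the brown cells (BAT) from the interscapular depot of C57BL/6 mice aged 6 weeks. All cultures had been taken through the same adipogenic protocol, 4 days with insulin, dexamethasone and IBMX and then 4 days with insulin and T3. EGCG (epigallocatechin gallate, a catechin of green tea) or its solvent DMSO (control) had been added to the medium, at a dose the labels do not give. Libraries were made on day 4 and day 8, so that there were 8 groups (WAT or BAT, day 4 or day 8, control or EGCG) of 3 libraries each, and 24 libraries together. Whether the replicates of a group were separate isolations of cells is not given in the labels, so p-values measure only the spread between these libraries. The cultures are mixed populations, and in such bulk RNA fewer cells of a type and less RNA per cell cannot be told apart.

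An integrin is a pair of 1 alpha and 1 beta chain, and the alpha chain largely sets the ligand. Itga5 and Itgav recognise the RGD motif of fibronectin, vitronectin and related proteins, Itga1, Itga2, Itga10 and Itga11 bind collagens, and Itga3, Itga6 and Itga7 bind laminins. Itgb1 is the common beta partner, while Itgb3 and Itgb5 pair with Itgav. A laminin is a cross-shaped trimer of 1 alpha, 1 beta and 1 gamma chain. When preadipocytes become fat cells, they exchange a fibronectin-rich matrix for a basement membrane of laminin and type IV collagen that surrounds each adipocyte.

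The values are FPKM (reads per kilobase of gene, scaled to the reads of the library). Replicates 1 and 2 (39452696 to 52893848 reads on genes per library) were deposited in 1 table and tested, and replicate 3 (16392420 to 41675643 reads) was deposited in another and is given beside them. Replicate 3 of the WAT day 8 EGCG group stood apart: 5 genes held 61.0% of its reads, and its median-ratio scale factor among the 8 libraries of replicate 3 was 0.456, where the others had factors of 1.005 to 1.227. It entered no test by the main method. The tables differed for some genes beyond their scaling: after scaling, 237 of 37310 genes, and 0 of the members, lay over 2 log2 units apart in the same direction in all 8 groups. Changes and differences given with a standard error (SE) are log2 values of FPKM + 1. Mature adipocyte markers (6 genes, Adipoq and Pparg among them) fell with EGCG in all 4 comparisons, 6 of 6 each time. Their summed level was 1971 to 2589 FPKM in WAT day 4 control and 374 to 411 with EGCG, and in BAT it was 4874 to 6322 and 1139.8 to 1162 on day 4 and 9344 to 9679.9 and 293 to 305 on day 8. For WAT day 8 the sum was 4675 to 5457 FPKM in control and 130.03 and 145 in replicates 1 and 2 with EGCG. Endothelial markers (7 tested, none lower) were higher with EGCG in WAT in 6 cases on day 4 and 4 on day 8, and in BAT in 7 and 6. Their summed level in BAT day 8 was 20.5 to 22.4 FPKM in control and 37.8 to 39.9 with EGCG. Pericyte and smooth muscle markers (6 tested) had 2 higher and 2 lower, 2 and 1, 4 and 0, and 2 and 3 in that order of groups, Schwann cell markers (4 tested) 2 and 0 and then 3 and 1 each time, preadipocyte markers (4 tested) 1 and 2, 0 and 4, 0 and 1, and 0 and 3, and skeletal muscle markers (3 tested) 3 and 0, 1 and 0, 0 and 0, and 0 and 1. The part of these shifts in the integrin and laminin values was not tested.

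A short set of chains held most of the integrin and laminin RNA. Among the beta chains Itgb1 made up 65.4% of the summed FPKM in WAT day 4 control cells and 78.4% in BAT day 8 control cells, and Itgb5 followed with 31.5% and 18.6%. Of the alpha chains, Itga5 stood at 78.9 ± 1.23 FPKM (SD, n = 2) in WAT day 4 control, ahead of Itgav at 19.7 ± 0.654 and Itga7 at 18.4 ± 0.767, and these last values overlapped in their spread. Among laminins, Lamc1 (291 ± 8.19 FPKM), Lamb1 (286 ± 2.74) and Lama4 (121 ± 5.33) were the highest gamma, beta and alpha chains in that group. Lamc1 made up 96.5% of gamma chain FPKM in WAT day 8 with EGCG, the lowest of the 8 groups, and 99.7% in BAT day 4 control, the highest. Lama4, an alpha chain of mesenchymal and vascular laminins, made up 58.6% of alpha chain FPKM in WAT and 87.5% in BAT day 4 control cells.

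The first question was what EGCG did to these chains during differentiation. Of the 29 members that passed the filter of 1 FPKM in at least 2 of 16 libraries, EGCG raised 16 and lowered 3 in WAT day 4 (limma, adjusted p under 0.05), where 34.4% of all 14095 tested genes rose and 19.3% fell. In BAT day 4 it raised 14 and lowered 5, beside 27.9% and 20.6% of all genes. On day 8 the calls were split, with 10 higher and 10 lower in WAT (44.7% and 18.9% of all genes) and 12 higher and 10 lower in BAT (46.5% and 26.1% of all genes). As shares of the 29, the members that rose were 55.2% for WAT day 4 and 48.3% for BAT day 4, above the share of all genes, and 34.5% for WAT day 8 and 41.4% for BAT day 8, below it. The WAT day 4 split was the one that moved most with the scaling, to 14 higher and 8 lower after median-ratio scaling and to 12 higher and 6 lower after quantile normalization. Median-ratio scaling moved the median log2 change of all tested genes from 0.09 to -0.02 in that comparison, from 0.17 to 0.01 in WAT day 8 and from 0.17 to 0.02 in BAT day 8. No called member changed its sign in any contrast under either of these scalings. In the fit of all 3 replicates as deposited with a replicate block, 12 members were called in WAT day 4 and 13 in BAT day 8. Over all 16 contrasts, 194 called member changes lay under the size or level set for full statistics, and 60 of them lost the call when 1 library was left out, an alternative chosen after seeing the data. Among those described here, these were the changes in WAT day 4 of Itgb5, Itgb2, Itgam, Itga10 and Lama4, in WAT day 8 of Lamc1 and Itgb2, in BAT day 4 of Itga1, Itgb2 and Itgb4, and in BAT day 8 of Itga8, Itgb8, Lama1 and Lama2.

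**Figure D1:**
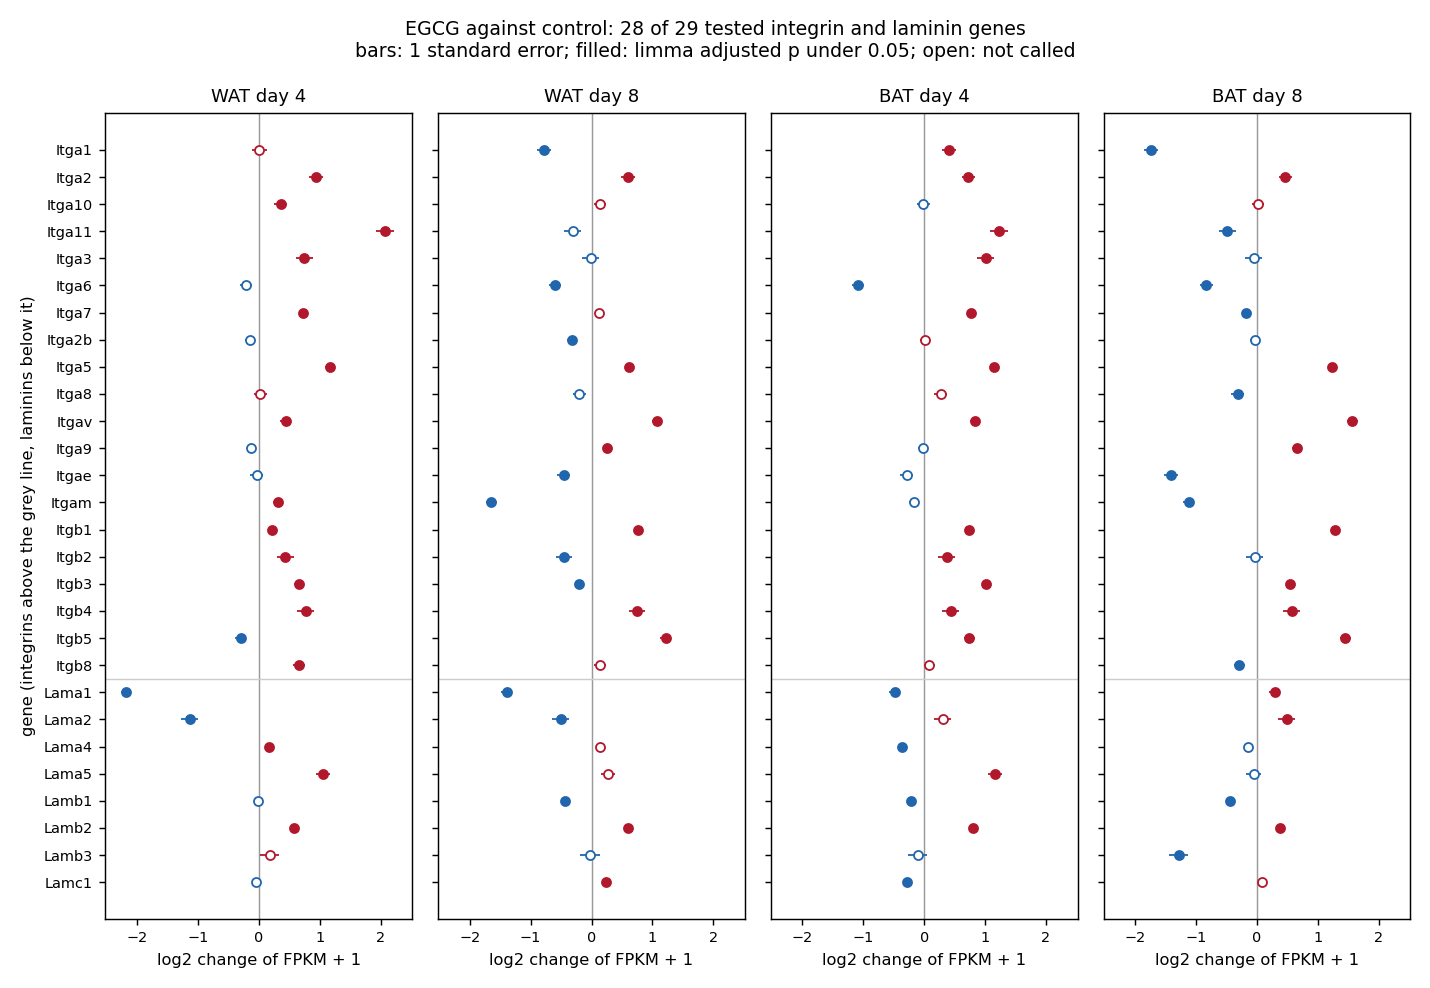
Log2 change of FPKM + 1 with EGCG for 28 of the 29 tested integrin and laminin genes in WAT and BAT on day 4 and day 8, with 1 standard error; filled points passed an adjusted p under 0.05. Itga5, Itgav, Itgb1 and Lamb2 lie to the right of 0 in all 4 panels, Itga1 lies at -0.78 and -1.74 on day 8, and Lama1 lies at -2.18 in WAT day 4.

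Integrins moved more in one direction on day 4. There, 13 of 20 tested integrins rose and 1 fell in WAT, and 12 rose and 1 fell in BAT. These counts are from the values as deposited, and in WAT day 4 the split of all members moved with scaling, as given above. The median log2 change of the 20 was 0.40 in WAT day 4 and 0.42 in BAT day 4, beside 0.09 and 0.03 for all tested genes. On day 8, 7 rose and 7 fell in WAT, and 8 rose and 8 fell in BAT. The day 8 medians were 0.06 in WAT and -0.04 in BAT, and the WAT median became -0.12 after median-ratio scaling and -0.04 after quantile normalization. Replicate 3 of WAT day 8 as deposited summed to 328 FPKM over the integrins with EGCG and 502 in control. In replicates 1 and 2 the summed integrin FPKM was higher with EGCG in each depot and on each day. It was 406 ± 4.30 (SD, n = 2) in control against 559.7 ± 9.17 with EGCG in WAT day 4, 522 ± 42.4 against 819.8 ± 0.925 in WAT day 8, 421 ± 9.37 against 733 ± 31.2 in BAT day 4 and 510.3 ± 11.96 against 1025 ± 1.05 in BAT day 8.

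Among the RGD-binding receptors, Itga5, the alpha chain of the main fibronectin receptor (NCBIM37 chromosome 15, 103174720 to 103197194, minus strand), rose with EGCG in all 4 comparisons. Replicates 1, 2 and 3 of WAT day 4 gave 78.001, 79.7 and 71.4 FPKM in control and 183, 173 and 196 with EGCG. In BAT day 4 they gave 103, 89.7 and 88.7 in control and 228, 199.6 and 191 with EGCG. No EGCG library overlapped the controls on day 4 in either depot. The log2 change was 1.16 ± 0.0729 SE, limma adjusted p = 1.70e-07 in WAT, a 2.26-fold difference of means, and 1.14 ± 0.0729 SE, limma adjusted p = 1.91e-07 in BAT. By day 8 the BAT controls stood at 46.8, 49.9 and 52.8 FPKM and the EGCG libraries at 115, 115 and 110.1, a log2 change of 1.23 ± 0.0729 SE, limma adjusted p = 2.27e-08. WAT day 8 replicates 1 and 2 moved from 71.6 and 75.7 to 116 and 111 FPKM (log2 change 0.62 ± 0.0729 SE, limma adjusted p = 1.55e-05). The deposited replicate 3 of that EGCG group read 44.9 FPKM, below its control (74.5), and 98.7 after scaling. In a fit of all 3 replicates as deposited, the WAT day 8 changes of Itga5 (0.17), Itgb1 (0.31) and Lamb2 (0.11) were no longer called, and without that library these 3 were.

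Itgav, the alpha chain that partners Itgb1, Itgb3 and Itgb5 in vitronectin and fibronectin receptors (chromosome 2, 83564554 to 83647073, plus strand), showed its larger change on day 8. Its BAT day 8 controls were 17.3, 18.4 and 15.9 FPKM and the EGCG libraries 55.2, 54.5 and 45.96, so that the lowest EGCG library lay well above the highest control. The log2 change there was 1.57 ± 0.0854 SE, limma adjusted p = 1.13e-08, a 3.07-fold difference, beside 1.08 ± 0.0854 SE, limma adjusted p = 5.76e-07 in WAT day 8. On day 4 the changes were 0.83 ± 0.0854 in BAT (limma adjusted p = 8.30e-06) and 0.44 ± 0.0854 in WAT (limma adjusted p = 0.00106). Exons of Itgav overlap an annotated gene on the other strand, and the sources used here do not say whether reads were counted by strand. The other RGD-binding alpha chains, Itga8 and the platelet chain Itga2b, had group means of 0.762 to 2.68 FPKM and fell in 1 comparison each, by 0.32 (Itga8, BAT day 8) and 0.32 (Itga2b, WAT day 8) on the log2 scale.

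The common beta chain Itgb1 (chromosome 8, 131209554 to 131257100, plus strand) was the most abundant integrin in every group. In BAT day 8 it read 239.8, 249.5 and 250.1 FPKM in control and 592, 592 and 570.2 with EGCG. WAT day 8 replicates 1 and 2 read 256 and 239.8 in control and 418 and 419 with EGCG. These were log2 changes of 1.27 ± 0.0419 SE, limma adjusted p = 1.85e-10, and 0.76 ± 0.0419 SE, limma adjusted p = 3.44e-08. On day 4 the BAT change was 0.73 ± 0.0419 SE, limma adjusted p = 9.24e-08, and WAT rose by 0.22, the smallest of the 4. Itgb5, the beta chain of the vitronectin receptor with Itgav (chromosome 16, 33829751 to 33949239, plus strand), did not follow Itgb1 in WAT day 4. There it read 82.2, 83.98 and 79.8 FPKM in control and 68.2, 66.6 and 79.4 with EGCG, a fall of 0.30 (limma adjusted p = 0.0131) in which the pair of replicate 3 differed by less than those of replicates 1 and 2. In the other comparisons it rose, by 0.74 ± 0.0874 SE, limma adjusted p = 2.63e-05 in BAT day 4, 1.21 ± 0.0874 SE, limma adjusted p = 2.71e-07 in WAT day 8 and 1.45 ± 0.0874 SE, limma adjusted p = 2.65e-08 in BAT day 8. Itgb3, which pairs with Itgav and in platelets with Itga2b, was a low-level chain that rose on day 4, from 5.27, 5.35 and 5.02 to 8.77, 9.09 and 8.55 FPKM in WAT (log2 change 0.65 ± 0.0755 SE, limma adjusted p = 2.26e-05) and from 2.94, 2.99 and 2.89 to 6.82, 7.24 and 6.72 in BAT (1.02 ± 0.0755 SE, limma adjusted p = 6.13e-07). Itgb8 was called higher in WAT day 4 and lower in BAT day 8, and Itgb4, the hemidesmosome chain, was called higher in all 4 comparisons with group means of 0.240 to 2.63 FPKM.

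**Figure D2:**
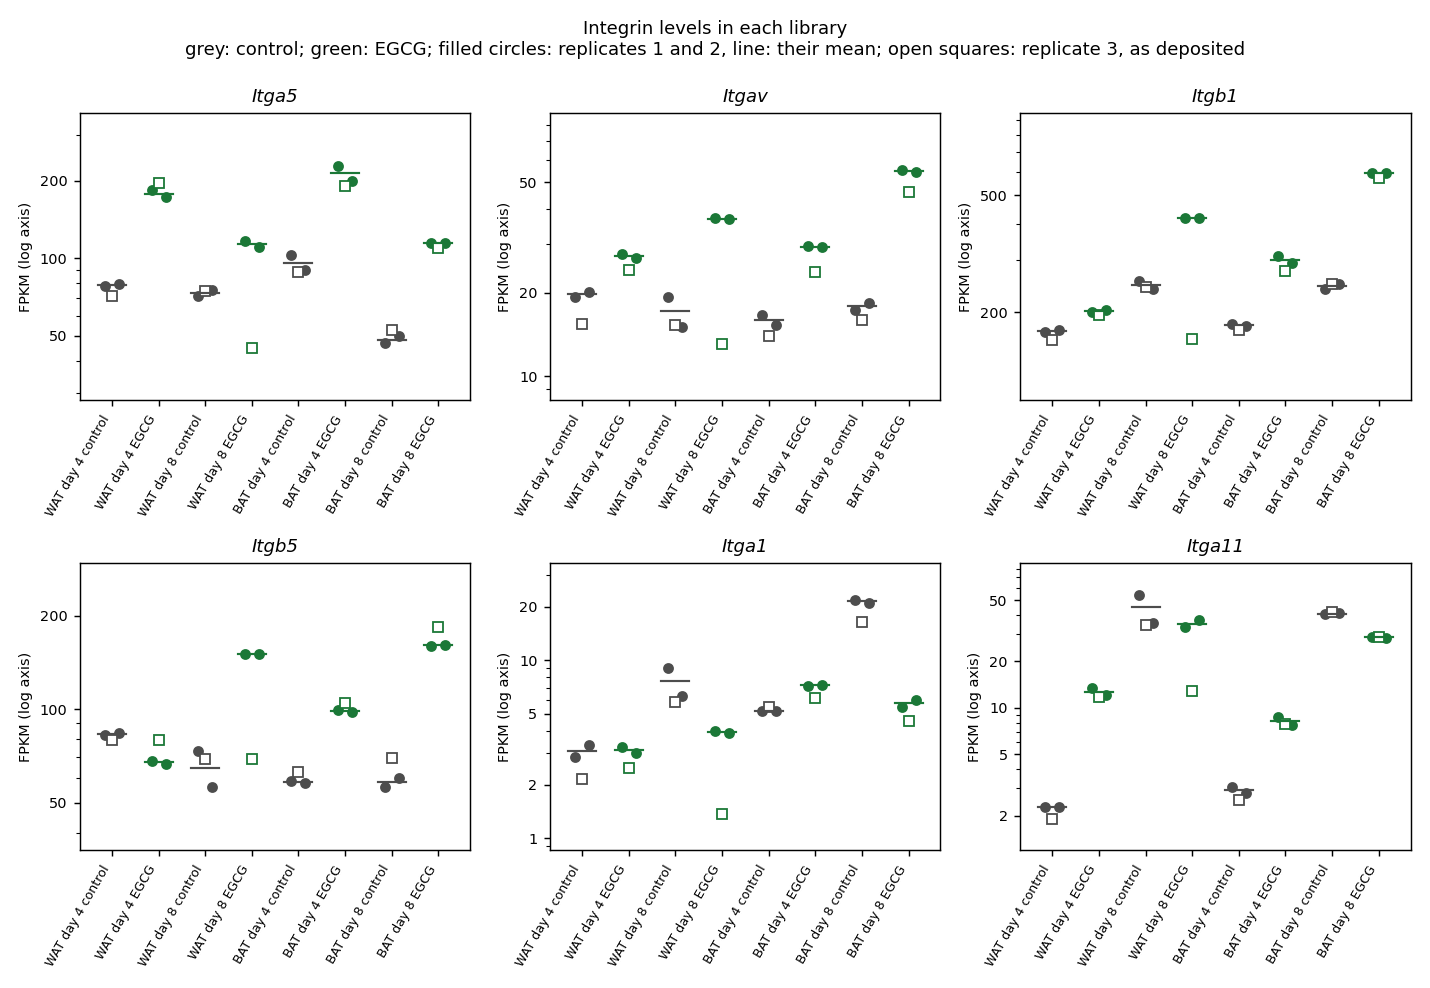
FPKM of Itga5, Itgav, Itgb1, Itgb5, Itga1 and Itga11 in each of the 24 libraries on log axes, with controls in grey and EGCG in green; filled circles are replicates 1 and 2, lines their means and open squares replicate 3 as deposited. EGCG libraries of Itga5 reach 228 FPKM in BAT day 4, Itga1 stands at 21.9 FPKM in a BAT day 8 control and at 5.48 with EGCG, and the open square of WAT day 8 EGCG lies below its circles in every panel.

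In all 4 EGCG comparisons 6 members were called higher (20.7% of the 29, beside 13.3% of all tested genes): Itga2, Itga5, Itgav, Itgb1, Itgb4 and Lamb2. Itga2 had a library at the filter of 1 FPKM in only 4 of the 8 groups, and Itgb4 in 6. Their place in this count therefore depends on the groups where they were high. No member was called lower in all 4, as 6.21% of all tested genes were. The promoters of 4 of the 6, those with the highest FPKM, and of Itga1, which fell on day 8, are shown because these genes moved together or apart under the same treatment. Each line holds the 250 bases before the RefSeq start of transcription, taken from RefSeq and placed in NCBIM37 by an exact match, written 5′ to 3′ on the gene's strand. Capitals mark matches on either strand to the AP-1 motif TGANTCA, the TEAD motif GGAATG, the GC box GGGCGG or the C/EBP motif TTGCNNAA. The window of Itga5, chr15:103197223-103197472 (minus strand), ends 28 bases before the GENCODE start of the gene. The others are chr2:83564304-83564553 (plus strand) for Itgav, chr8:131209304-131209553 (plus strand) for Itgb1, chr9:108381943-108382192 (plus strand) for Lamb2 and chr13:115892173-115892422 (minus strand) for Itga1.
Itga5: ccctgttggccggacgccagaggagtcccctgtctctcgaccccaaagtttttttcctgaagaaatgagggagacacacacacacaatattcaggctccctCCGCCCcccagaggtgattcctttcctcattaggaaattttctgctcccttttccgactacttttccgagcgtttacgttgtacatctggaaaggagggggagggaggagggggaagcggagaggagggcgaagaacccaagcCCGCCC
Itgav: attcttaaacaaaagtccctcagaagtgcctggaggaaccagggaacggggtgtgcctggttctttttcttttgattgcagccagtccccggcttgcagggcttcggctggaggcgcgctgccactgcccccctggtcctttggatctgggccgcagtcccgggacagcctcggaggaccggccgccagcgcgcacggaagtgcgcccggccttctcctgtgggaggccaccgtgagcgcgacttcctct
Itgb1: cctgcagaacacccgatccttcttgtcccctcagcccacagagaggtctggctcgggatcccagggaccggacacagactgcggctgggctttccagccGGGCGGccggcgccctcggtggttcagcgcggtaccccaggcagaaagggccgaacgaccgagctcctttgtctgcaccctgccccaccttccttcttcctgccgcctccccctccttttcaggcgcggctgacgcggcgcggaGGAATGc
Lamb2: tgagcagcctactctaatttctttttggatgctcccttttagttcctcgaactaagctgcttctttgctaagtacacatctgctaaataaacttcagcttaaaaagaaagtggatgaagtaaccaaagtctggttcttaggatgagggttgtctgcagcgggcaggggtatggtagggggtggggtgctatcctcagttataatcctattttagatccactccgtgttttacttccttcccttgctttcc
Itga1: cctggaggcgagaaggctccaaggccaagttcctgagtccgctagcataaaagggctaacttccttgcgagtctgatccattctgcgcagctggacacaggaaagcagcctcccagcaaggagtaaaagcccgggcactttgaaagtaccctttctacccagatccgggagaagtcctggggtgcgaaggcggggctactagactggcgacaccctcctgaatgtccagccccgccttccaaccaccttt

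The Itga5 window held 2 GC boxes, and that of Itgb1 held 1 GC box and 1 TEAD motif. Those of Itgav, Lamb2 and Itga1 held no match to the 4 motifs. RefSeq windows were found for 23 of the 37 members. Of these 23, 8 held a GC box, 3 a TEAD motif, 1 an AP-1 motif and 0 a C/EBP motif, while 33.0%, 12.6%, 6.73% and 9.57% of all 32536 windows of this length did. A match to these letters is a description of the window.

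Of the collagen receptors, Itga1 fell with EGCG on day 8 and Itga11 rose on day 4. Itga1 (chromosome 13, 115748287 to 115892172, minus strand), a receptor for collagen IV among others, read 21.9, 20.9 and 16.4 FPKM in BAT day 8 control and 5.48, 5.96 and 4.57 with EGCG. That was a log2 change of -1.74 ± 0.116 SE, limma adjusted p = 6.64e-08, a 3.74-fold lower mean with EGCG. For WAT day 8 the libraries went from 8.99 and 6.26 to 3.99 and 3.92 FPKM in replicates 1 and 2 (-0.78 ± 0.116 SE, limma adjusted p = 9.995e-05). On day 4 it was called higher in BAT by 0.41 and not called in WAT (0.01 ± 0.116, limma adjusted p = 0.947). Itga11 (chromosome 9, 62525633 to 62631789, plus strand), a fibroblast receptor for fibrillar collagen, rose on day 4, from 2.27, 2.27 and 1.90 to 13.4, 12.1 and 11.7 FPKM in WAT and from 3.05, 2.79 and 2.52 to 8.66, 7.73 and 7.84 in BAT. These were log2 changes of 2.07 ± 0.142 SE, limma adjusted p = 3.40e-07 and 1.23 ± 0.142 SE, limma adjusted p = 2.27e-05. By day 8 the direction had turned in BAT, with 40.3, 40.97 and 41.6 FPKM in control and 28.999, 28.4 and 28.8 with EGCG (-0.49 ± 0.142, limma adjusted p = 0.00847). In WAT day 8 it was not called (-0.31 ± 0.142, limma adjusted p = 0.0746). The ratio of Itga11 to Itga1 FPKM, over all 3 replicates, was 0.678 to 0.889 in WAT day 4 control and 4.04 to 4.73 with EGCG. It was 1.84 to 2.54 in BAT day 8 control and 4.76 to 6.30 with EGCG, again without overlap. Itga2 was called higher in all 4 comparisons with group means of 0.403 to 2.05 FPKM, and Itga10 in WAT day 4 only.

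The laminin receptors diverged. Itga6, which forms laminin receptors with Itgb1 or Itgb4, fell with EGCG in BAT day 4, from 17.4, 21.5 and 18.3 to 8.003, 9.06 and 8.44 FPKM, with no overlap (log2 change -1.10 ± 0.0991 SE, limma adjusted p = 2.97e-06). Its change was -0.83 ± 0.0991 SE, limma adjusted p = 1.06e-05, in BAT day 8 and -0.60 ± 0.0991 SE, limma adjusted p = 0.000227, in WAT day 8, and it was not called in WAT day 4 (-0.21 ± 0.0991, limma adjusted p = 0.0981). Itga7, the laminin receptor of muscle, rose on day 4, from 17.8, 18.9 and 17.3 to 29.7, 32.2 and 28.3 FPKM in WAT (0.72 ± 0.0618 SE, limma adjusted p = 2.06e-06) and from 19.8, 22.2 and 22.1 to 36.3, 36.1 and 45.8 in BAT (0.76 ± 0.0618 SE, limma adjusted p = 1.28e-06). The ratio of Itga6 to Itga7 was 0.830 to 0.965 in BAT day 4 controls and 0.184 to 0.251 with EGCG. Exons of Itga7 overlap a gene on the other strand. Itga3, mostly an epithelial laminin receptor, rose on day 4 from 3.75, 2.98 and 3.34 to 7.46, 5.29 and 6.86 FPKM in WAT (0.75 ± 0.139 SE, limma adjusted p = 0.000798) and by 1.01 in BAT, and was not called on day 8. Epithelial and mesothelial markers were higher with EGCG as well, 5 of 5 tested in WAT day 4 and 2 of 5 in each other comparison, and their part in the rise of Itga3, Itgb4 and Lama5 was not tested.

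The integrins of blood cells were low. Itgam and Itgb2, the chains of the myeloid complement receptor, had highest group means of 3.15 and 3.10 FPKM. Itgam read 2.93, 3.36 and 2.89 FPKM in WAT day 8 control and 0.304 and 0.340 in replicates 1 and 2 with EGCG, and 2.21, 2.06 and 2.07 and 0.440, 0.437 and 0.386 in BAT day 8. It fell by 1.65 in WAT and 1.12 in BAT on day 8, and rose by 0.32 in WAT day 4. Itgb2 rose by 0.44 in WAT and 0.37 in BAT on day 4 and fell by 0.45 in WAT day 8. Of the macrophage and leukocyte markers, 6 of 7 tested rose in WAT day 4 and 5 of 7 in BAT day 4, and 7 of 7 fell in WAT day 8 and 6 of 7 in BAT day 8. Their sum over 10 genes was 189 to 214 FPKM in BAT day 4 control and 404 to 488 with EGCG, and 132 to 148 and 62.7 to 64.1 on day 8. Ptprc stayed under 1 FPKM, and Cd3e was at or under 3 reads in every group. The part of these cells in the Itgam and Itgb2 values was not tested. Itgae, the partner of Itgb7 on lymphocytes, passed the filter only through BAT day 8 control (1.69, 1.92 and 1.52 FPKM), against 0.0167, 0.0934 and 0 with EGCG, so that its calls follow from the filter and are read as values only, although they are in the counts. Itga9, a receptor for tenascin and osteopontin, rose in BAT day 8 from 3.90, 3.86 and 4.18 to 6.82, 6.52 and 6.50 FPKM (log2 change 0.65 ± 0.0740 SE, limma adjusted p = 6.81e-06).

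The summed laminin FPKM differed less with EGCG than the integrin sum. For the 11 genes it was 834 ± 14.4 (SD, n = 2) in WAT day 4 control and 819 ± 24.4 with EGCG, and on day 8 791 ± 57.2 in control and 819 ± 5.47 with EGCG in WAT, against 543 ± 14.4 and 536 ± 9.63 for BAT. In BAT day 4 it was 541 ± 6.51 in control and 496 ± 22.1 with EGCG, lower in each of the 3 replicates. With EGCG, of 9 tested laminins, 3 rose and 2 fell in WAT day 4, 3 rose and 3 fell in WAT day 8, 2 rose and 4 fell in BAT day 4, and 4 rose and 2 fell in BAT day 8. The medians were 0.17, 0.14, -0.11 and 0.08 in that order, and after median-ratio scaling those of day 8 became -0.06 in WAT and -0.11 in BAT. Lama1, the alpha chain of the first laminin of the embryo (chromosome 17, 68046605 to 68171985, plus strand), showed the largest fall. WAT day 4 controls held 18.8, 18.7 and 13.6 FPKM and EGCG libraries 2.98, 3.79 and 2.42, a log2 change of -2.18 ± 0.0884 SE, limma adjusted p = 5.36e-09 and a 5.55-fold lower mean. WAT day 8 libraries went from 5.999 and 5.75 to 1.70 and 1.54 FPKM in replicates 1 and 2 (-1.39 ± 0.0884 SE, limma adjusted p = 9.77e-08). In BAT it was lower by 0.48 on day 4, and on day 8 called higher by 0.29, where replicate 3 went the other way (4.07 in control and 3.54 with EGCG). Lama2, the alpha chain of the laminin of muscle and nerve (chromosome 10, 26701094 to 27336748, minus strand), fell in WAT day 4 from 62.7, 65.4 and 50.8 to 25.1, 32.7 and 22.02 FPKM (-1.13 ± 0.140 SE, limma adjusted p = 3.88e-05). Its WAT day 8 controls were spread (69.3, 99.04 and 87.4 FPKM), and the fall of 0.51 (limma adjusted p = 0.00756) was -0.25 and no longer called without control replicate 2 (limma adjusted p = 0.0815), and -0.76 without control replicate 1. In BAT it was not called on day 4 and was higher by 0.49 on day 8. Lama5, of mature basement membranes, rose on day 4, from 2.27, 2.69 and 2.07 to 7.13, 5.39 and 5.80 FPKM in WAT (1.05 ± 0.119 SE, limma adjusted p = 1.96e-05) and by 1.16 in BAT at 3.06 FPKM, and was not called on day 8. Lama4 moved by 0.17 in WAT day 4 and -0.37 in BAT day 4.

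Among the beta chains Lamb2 rose and Lamb1 fell or was not called. Lamb2 (chromosome 9, 108382193 to 108392861, plus strand), the beta chain of mature synaptic, muscle and kidney laminins, rose in every EGCG comparison. Its libraries read 44.8, 48.6 and 43.9 FPKM in WAT day 4 control and 69.7, 71.2 and 72.4 with EGCG, and 45.9, 46.2 and 45.3 and 80.8, 81.7 and 80.7 in BAT day 4. The log2 changes were 0.58 ± 0.0411 SE, limma adjusted p = 4.11e-07 and 0.81 ± 0.0411 SE, limma adjusted p = 3.83e-08. In the fit of all 3 replicates as deposited, the WAT day 4 change was 0.63 and no longer called (limma adjusted p = 0.0551). The WAT day 8 change was 0.59 ± 0.0411 SE, limma adjusted p = 1.95e-07, and 0.39 after median-ratio scaling, and in BAT day 8 it was 0.37. Lamb1 (chromosome 12, 31950099 to 32014509, plus strand), the widely used beta chain, fell in WAT day 8 (-0.43), BAT day 4 (-0.22) and BAT day 8 (-0.44), and was not called in WAT day 4 (288, 284 and 279 FPKM in control and 285, 284 and 275 with EGCG). The ratio of Lamb2 to Lamb1 FPKM, which does not depend on the scaling of a library, was 0.156 to 0.171 in WAT day 4 control and 0.244 to 0.264 with EGCG over 3 replicates, and 0.439 to 0.462 and 0.898 to 0.962 in WAT day 8. In BAT it was 0.235 to 0.250 and 0.475 to 0.503 on day 4, and 0.542 to 0.607 and 0.976 to 1.09 on day 8. The control and EGCG libraries did not overlap in any of these 4 pairs, including the WAT day 8 library with 61.0% of its reads on 5 genes. Lamc1, the common gamma chain, was called higher by 0.24 in WAT day 8 and lower by 0.29 in BAT day 4.

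**Figure D3:**
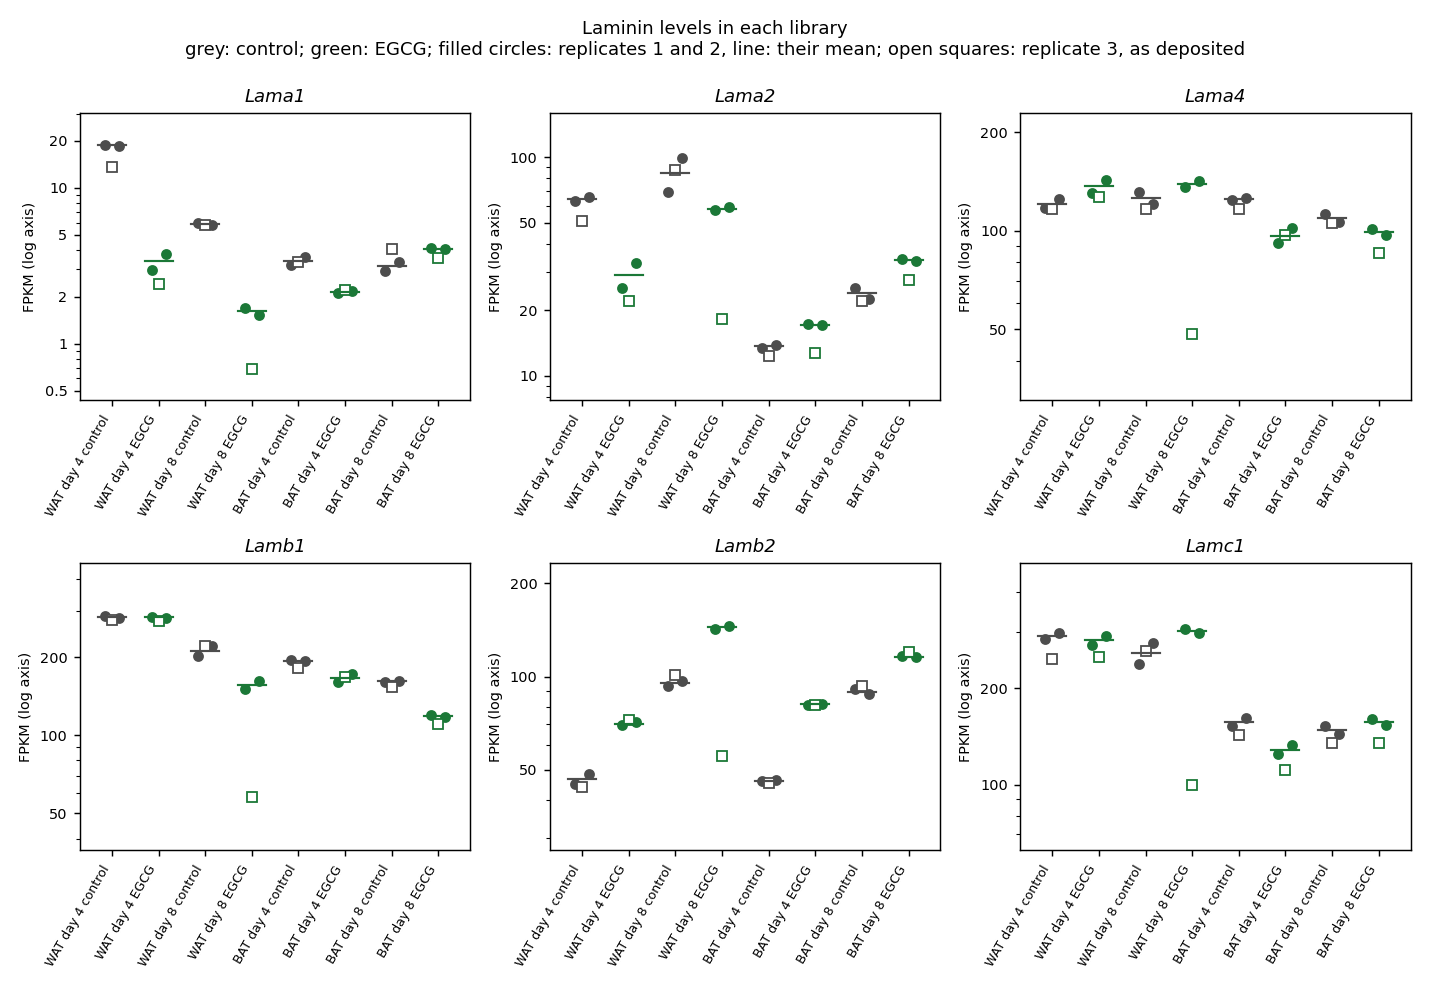
FPKM of Lama1, Lama2, Lama4, Lamb1, Lamb2 and Lamc1 in each of the 24 libraries on log axes, with controls in grey and EGCG in green; filled circles are replicates 1 and 2, lines their means and open squares replicate 3 as deposited. Lama1 stands between 13.6 and 18.8 FPKM in WAT day 4 controls and under 4 in WAT day 4 with EGCG, the Lamb2 circles lie higher with EGCG than in control in each pair, and those of Lamc1 lie lower in BAT than in WAT.

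The effect of EGCG differed between the depots and between the days for named chains, by the test of the difference itself (a limma interaction). For BAT against WAT, 13 of 29 members differed on day 4 and 15 on day 8, beside 28.1% and 39.2% of all tested genes. The day 8 differences were 8 higher and 7 lower in BAT, and 8 and 4 after quantile normalization. In the fit of all 3 replicates as deposited the counts were 2 on day 4 and 7 on day 8. The difference was 1.70 ± 0.125 SE, limma adjusted p = 4.03e-06 for Lama1 on day 4 and 1.68 ± 0.125 SE, limma adjusted p = 2.33e-06 on day 8, where the fall was larger in WAT than in BAT on day 4 and in WAT alone on day 8. On day 4 it was 1.44 ± 0.198 SE, limma adjusted p = 0.000327 for Lama2 and 1.04 ± 0.124 SE, limma adjusted p = 0.000124 for Itgb5, which rose in BAT and fell in WAT. Lamb3, an epithelial beta chain, differed on day 8 by -1.26 ± 0.227 SE, limma adjusted p = 0.00111, with 1.51, 1.73 and 1.65 FPKM in BAT control and 0.0991, 0.0462 and 0.170 with EGCG. Between day 8 and day 4 the effect differed for 20 members in WAT and 19 in BAT, beside 49.4% and 55.4% of all genes, and for 11 and 8 in the fit of all 3 replicates. Itga11 had the largest such difference in WAT (-2.38 ± 0.201 SE, limma adjusted p = 3.94e-06) and Itga1 in BAT (-2.14 ± 0.164 SE, limma adjusted p = 1.14e-06). In WAT Itgb5 differed by 1.51 and Itgam by -1.97. In BAT Itga11 differed by -1.72, Lama5 by -1.22, Lamb3 by -1.18 and Itga3 by -1.06.

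The genes that work with these chains were read from the same fit, on 3 lists. Focal adhesion adaptors and kinases (19 tested of 21), which link integrins to actin, rose in 10 and fell in 3 in WAT day 4, 15 and 1 in WAT day 8, 16 and 0 in BAT day 4, and 15 and 1 in BAT day 8, with median log2 changes of 0.20, 0.57, 0.73 and 1.04. In that order 34.4%, 44.7%, 27.9% and 46.5% of all tested genes rose and 19.3%, 18.9%, 20.6% and 26.1% fell, with medians of 0.09, 0.17, 0.03 and 0.17. Actn1, an actin cross-linker, had the highest change of the called genes on day 8, with means of 40.01 to 182 FPKM from control to EGCG in BAT (log2 change 2.16 ± 0.111 SE, limma adjusted p = 6.89e-09) and 42.9 to 109 in WAT (1.35 ± 0.111). On day 4 the highest were Parvb in WAT (1.36 ± 0.0948) and Lims2 in BAT (2.42 ± 0.178), partners of integrin-linked kinase. The gene of that kinase, Ilk, was among the genes on which the tables differed, at 0.109 to 0.772 FPKM in replicates 1 and 2 and 8.90 to 21.8 in replicate 3, and was not tested. The lowest were Vcl, the vinculin gene, in WAT day 4 (-0.55 ± 0.141), and Fermt3, the kindlin of blood cells, in WAT (-0.86 ± 0.117) and BAT (-0.73 ± 0.117) on day 8. No adaptor fell in BAT day 4, and Lims1 had the smallest called rise (0.33 ± 0.0843).

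Basement membrane partners of laminin (14 tested of 17) were split, with 6 higher and 5 lower in WAT day 4, 4 and 6 in WAT day 8, 6 and 3 in BAT day 4 and 6 and 4 in BAT day 8, shares of 42.9%, 28.6%, 42.9% and 42.9% higher and 35.7%, 42.9%, 21.4% and 28.6% lower against those of all genes just given. Ntn4, a laminin-binding netrin, had the highest called change in all 4 comparisons, 1.01 ± 0.160 and 2.12 ± 0.160 in WAT on days 4 and 8 and 2.23 ± 0.160 and 1.42 ± 0.160 in BAT. Col15a1, a collagen next to basement membranes, had the lowest in all 4, with WAT means of 461 to 194 FPKM on day 4 and 217 to 46.8 on day 8 from control to EGCG (log2 changes -1.25 ± 0.156 and -2.15 ± 0.156), and -0.99 ± 0.156 and -0.72 ± 0.156 in BAT. Other integrin ligands (13 tested of 14) rose in 7 and fell in 4 in WAT day 4, 9 and 2 in WAT day 8, 11 and 1 in BAT day 4 and 10 and 1 in BAT day 8, or 53.8%, 69.2%, 84.6% and 76.9% higher and 30.8%, 15.4%, 7.69% and 7.69% lower. Spp1 (osteopontin) had the highest change in WAT day 4, with means of 103 to 453 FPKM (2.11 ± 0.177), and Ctgf, a matricellular ligand, in the other 3 comparisons, with 84.4 to 614 FPKM in BAT day 8 (2.85 ± 0.185), 2.76 ± 0.185 in BAT day 4 and 2.01 ± 0.185 in WAT day 8. WAT day 4 differed: Cyr61 was lowest there (-1.38 ± 0.139), Ctgf fell by 0.96 (limma adjusted p = 0.00100) and Vtn rose by 0.72 (limma adjusted p = 0.00768). Vtn, the gene of vitronectin, was lowest in the other 3, with 23.05 to 2.17 FPKM in WAT day 8 (-2.91 ± 0.192), and changes in BAT of -1.12 ± 0.192 on day 4 and -2.26 ± 0.192 on day 8.

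The second question was how the chains changed from day 4 to day 8. The medium changed between these days too, from insulin, dexamethasone and IBMX to insulin and T3. Differentiation, medium and time in culture therefore cannot be told apart in these comparisons. In control cells 17 members rose and 4 fell in WAT, beside 27.7% and 33.2% of all genes, and 15 rose and 5 fell in BAT, beside 28.7% and 40.4% (16 and 2 after median-ratio scaling). With EGCG, 9 rose and 9 fell in WAT (31.8% and 27.7% of all genes) and 12 rose and 7 fell in BAT (29.7% and 28.2%). In all 4 of these comparisons 5 members rose (17.2% of the 29, beside 9.50% of all genes), Itga11, Itgb1, Lama2 and Lamb2 among them. Lamb1 alone of the 29 fell in all 4 (3.45%, beside 11.1% of all genes, so a share below the background). The Lama2 call was weakest in WAT control, where its change of 0.37 was 0.11 and not called (limma adjusted p = 0.427) without day 8 replicate 2. In the fit of all 3 replicates as deposited, 11 members were called in WAT control and 11 in BAT with EGCG. Comparisons of a later and an earlier day share libraries with those of EGCG and control. Cell markers moved between the days too. Of 7 macrophage and leukocyte markers tested, 7 rose and 0 fell in WAT control, 1 and 2 in BAT control, 0 and 5 in WAT with EGCG and 0 and 6 in BAT with EGCG. In the same order 5 and 0, 4 and 0, 2 and 3, and 2 and 2 of 7 endothelial markers rose and fell, and 5 and 0, 6 and 0, 0 and 4, and 1 and 5 of 6 mature adipocyte markers. The macrophage and leukocyte sum was 80.4 to 89.2 FPKM on day 4 and 132 to 164 on day 8 in WAT control. Their part in the changes between days was not tested.

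Itga11 had the largest rise. In WAT control its replicates went from 2.27, 2.27 and 1.90 FPKM on day 4 to 54.1, 35.4 and 34.6 on day 8, and in BAT control from 3.05, 2.79 and 2.52 to 40.3, 40.97 and 41.6. The log2 changes were 3.78 ± 0.142 SE, limma adjusted p = 2.81e-09 and 3.41 ± 0.142 SE, limma adjusted p = 2.41e-09. With EGCG, where day 4 was already higher, they were 1.39 ± 0.142 SE, limma adjusted p = 5.86e-06 in WAT and 1.69 ± 0.142 SE, limma adjusted p = 1.18e-06 in BAT. Itga1 rose in control cells, by 1.06 ± 0.116 SE, limma adjusted p = 9.62e-06 in WAT and 1.85 ± 0.116 SE, limma adjusted p = 5.36e-08 in BAT, and with EGCG was not called in WAT (0.27 ± 0.116, limma adjusted p = 0.0686) and fell by 0.29 in BAT, a call that was lost with any 1 of its 4 libraries left out. Itga5 fell in BAT control (-0.97 ± 0.0729 SE, limma adjusted p = 2.39e-07), and with EGCG in WAT (-0.64 ± 0.0729 SE, limma adjusted p = 1.34e-05) and BAT (-0.89 ± 0.0729 SE, limma adjusted p = 9.98e-07), while in WAT control it was not called (-0.10 ± 0.0729, limma adjusted p = 0.265). Itgb1 rose by 0.52 ± 0.0419 SE, limma adjusted p = 7.73e-07 in WAT control and 0.43 in BAT control, and by 1.05 ± 0.0419 SE, limma adjusted p = 4.89e-09 and 0.97 ± 0.0419 SE, limma adjusted p = 7.49e-09 with EGCG. The RNA of Itga5 relative to that of Itgb1, a beta chain shared with other alpha chains, was lower on day 8. The ratio of Itga5 to Itgb1 FPKM was 0.446 to 0.459 on day 4 and 0.280 to 0.316 on day 8 in WAT control, and 0.680 to 0.738 and 0.193 to 0.194 in BAT with EGCG.

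Itgb5 and Itgav were called higher on day 8 with EGCG and not in control. Itgb5 rose by 1.14 ± 0.0874 SE, limma adjusted p = 5.64e-07 in WAT and 0.70 ± 0.0874 SE, limma adjusted p = 3.02e-05 in BAT with EGCG, while in WAT control it was 82.2, 83.98 and 79.8 FPKM on day 4 and 73.3, 56.1 and 68.9 on day 8, a log2 change of -0.37 that was -0.18 without day 8 replicate 2 and -0.56 without day 8 replicate 1. Itgav rose with EGCG by 0.88 ± 0.0854 SE, limma adjusted p = 3.88e-06 in BAT and 0.43 in WAT. Itga7 rose by 0.82 ± 0.0618 SE, limma adjusted p = 2.59e-07 in BAT control. Itgb3 and Itga3 fell in WAT with EGCG, by 0.74 and 0.85 on the log2 scale (limma adjusted p = 6.05e-06 and 0.000244).

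Among laminins, Lamb2 went from 44.8, 48.6 and 43.9 FPKM on day 4 to 93.4, 96.8 and 101 on day 8 in WAT control and from 45.9, 46.2 and 45.3 to 90.97, 87.8 and 93.03 in BAT control, without overlap. The log2 changes were 1.01 ± 0.0411 SE, limma adjusted p = 4.90e-09 and 0.94 ± 0.0411 SE, limma adjusted p = 3.16e-09 in control and 1.02 ± 0.0411 SE, limma adjusted p = 4.94e-09 and 0.51 ± 0.0411 SE, limma adjusted p = 8.66e-07 with EGCG. Lamb1 changed by -0.86 ± 0.0491 SE, limma adjusted p = 6.02e-08 in WAT with EGCG and by -0.43, -0.26 and -0.48 in WAT control, BAT control and BAT with EGCG. Lama2 rose by 0.99 ± 0.140 SE, limma adjusted p = 7.80e-05 in WAT and 0.94 ± 0.140 SE, limma adjusted p = 0.000123 in BAT with EGCG and by 0.76 ± 0.140 SE, limma adjusted p = 0.000459 in BAT control. Lama1 fell in WAT control from 18.8, 18.7 and 13.6 to 5.999, 5.75 and 5.81 FPKM (-1.52 ± 0.0884 SE, limma adjusted p = 5.79e-08), a 3.19-fold lower mean on day 8.

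**Figure D4:**
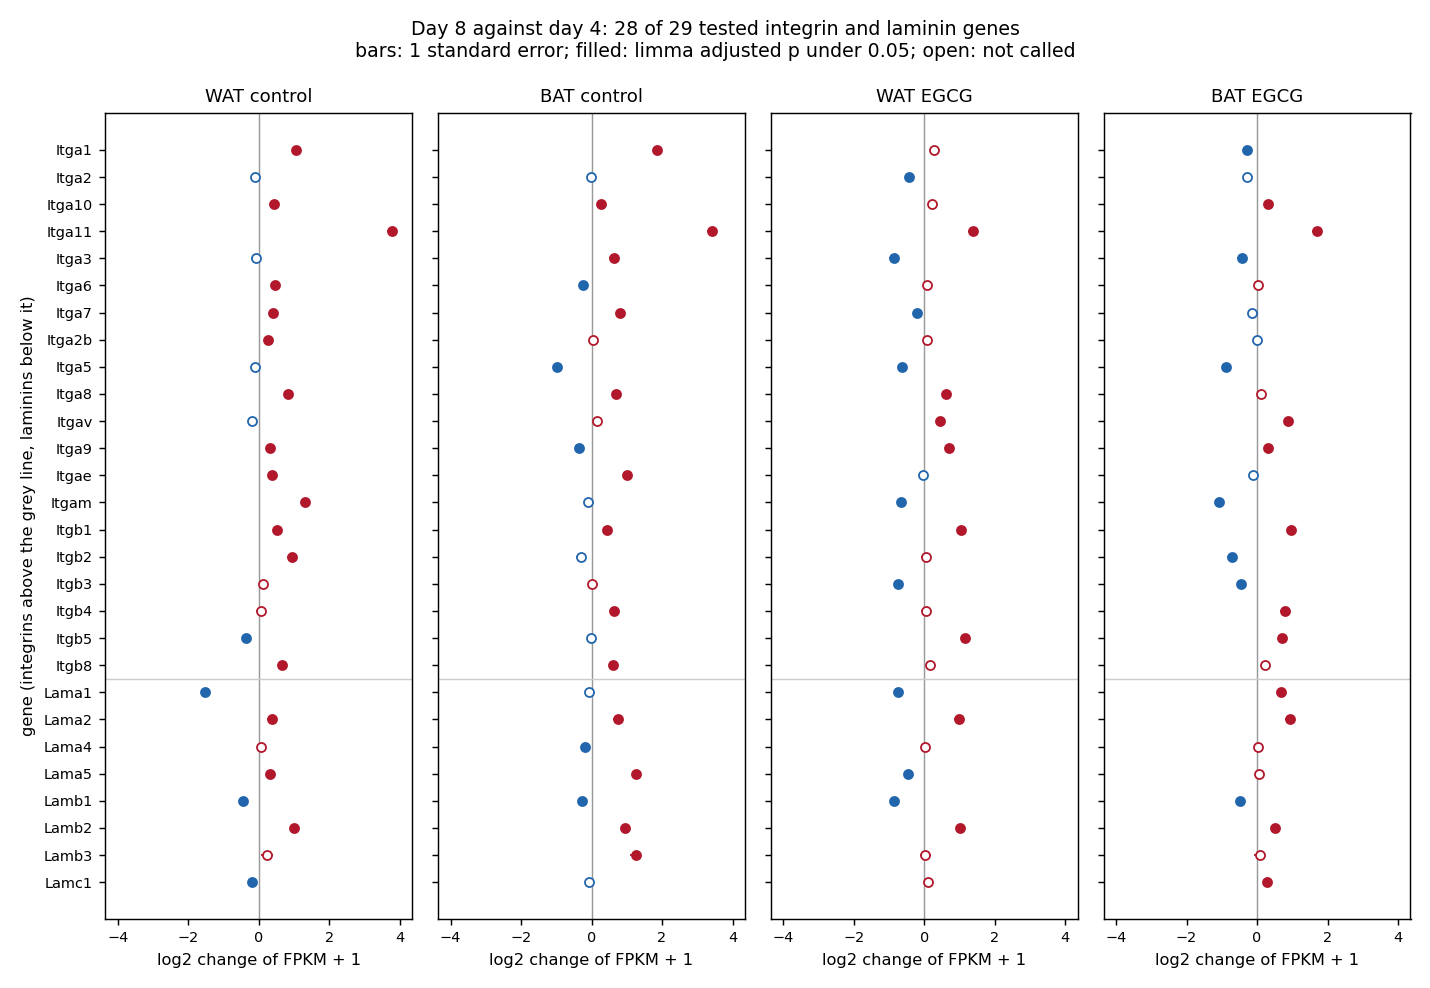
Log2 change of FPKM + 1 from day 4 to day 8 for 28 of the 29 tested integrin and laminin genes in control and EGCG cells of each depot, with 1 standard error; filled points passed an adjusted p under 0.05. Itga11 lies at 3.78 in WAT control and 3.41 in BAT control, Lamb2 lies to the right of 0 and Lamb1 to the left in all 4 panels.

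The third question was how the depots differed. Laminins were lower in BAT: of 9 tested, 7 were lower and 0 higher in day 4 control, 6 and 0 in day 8 control, 8 and 1 in day 4 with EGCG and 7 and 1 in day 8 with EGCG. The median log2 differences were -0.89, -0.38, -0.77 and -0.48, and they stayed negative after both other scalings. Integrins were split, with 10 higher and 6 lower, 5 and 6, 8 and 6, and 5 and 2 in the same order. Of all 29 members, 10 were higher and 13 lower in BAT in day 4 control (41.4% and 14.4% of all genes), 5 and 12 in day 8 control (31.6% and 22% of all genes), 9 and 14 in day 4 with EGCG (32.9% and 15.8%) and 6 and 9 in day 8 with EGCG (24.4% and 14%). The members lower in BAT in all 4 were 5 (17.2% of the 29, beside 3% of all genes), Lama2, Lamb1, Lamc1 and Itga2b among them. Those higher in BAT in all 4 were Itga1 and Itga7 (6.90%, beside 7.18% of all genes), but the calls of Itga7 on day 4 and of Itga1 in day 8 with EGCG were lost with 1 library left out. Without BAT replicate 2 the Itga7 difference in day 4 control was 0.10 (limma adjusted p = 0.235), and without BAT replicate 2 that of Itga1 in day 8 with EGCG was 0.39 (limma adjusted p = 0.0767). In the fit of all 3 replicates as deposited, 11 members were called in day 8 control and 13 in day 4 with EGCG, and with a filter of 5 FPKM, which tested fewer members, 15 in day 4 control and 11 in day 8 control. Of 6 mature adipocyte markers 5, 6, 5 and 6 were higher in BAT in that order and none lower. Of 7 macrophage and leukocyte markers 6 were higher in day 4 control and 4 lower in day 8 control. With EGCG, 6 were higher on day 4 and 1 lower on day 8. The preadipocyte markers Pdgfra and Cd34 were called lower in BAT in all 4 (-0.63 and -1.67 in day 4 control). Ly6a was called higher in BAT in day 4 control and lower in the other comparisons. Dlk1 was called lower on day 4 only. The skeletal muscle markers Des and Acta1 were called lower in BAT on day 4 (-1.24 and -1.61 in control). In day 8 control neither was called, and Myog was called higher. The part of such cells in the depot differences was not tested.

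Lamc1, at 286, 297 and 248 FPKM in WAT and 153, 161 and 143 in BAT day 4 control, carried the largest difference in FPKM. The log2 differences were -0.89 ± 0.0678 SE, limma adjusted p = 1.52e-06 in day 4 control, -0.79 ± 0.0678 SE, limma adjusted p = 1.89e-06 in day 8 control, -1.13 ± 0.0678 SE, limma adjusted p = 2.18e-07 in day 4 with EGCG and -0.94 ± 0.0678 SE, limma adjusted p = 1.52e-06 in day 8 with EGCG. Lama2 read 62.7, 65.4 and 50.8 FPKM in WAT and 13.5, 13.9 and 12.4 in BAT day 4 control, a 4.68-fold lower mean in BAT (-2.15 ± 0.140 SE, limma adjusted p = 4.93e-07), and the difference was -1.76 ± 0.140 SE, limma adjusted p = 1.05e-06, in day 8 control. With EGCG, which lowered it in WAT, the difference was -0.71 ± 0.140 SE, limma adjusted p = 0.00142 on day 4 and -0.76 ± 0.140 SE, limma adjusted p = 0.00128 on day 8. Lama1 differed by -2.17 ± 0.0884 SE, limma adjusted p = 2.52e-08 in day 4 control and -0.73 ± 0.0884 SE, limma adjusted p = 3.19e-05 in day 8 control, and in day 8 with EGCG it was called higher in BAT by 0.95. Lamb1, also lower in BAT, differed by -0.56 ± 0.0491 SE, limma adjusted p = 4.09e-06 in day 4 control and -0.77 ± 0.0491 SE, limma adjusted p = 3.43e-07 in day 4 with EGCG. Lamb2 was not called in control cells, and was higher in BAT by 0.20 in day 4 with EGCG and lower by 0.31 in day 8 with EGCG.

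Some chains of epithelial laminins and their receptors were lower in BAT on day 4 as well. Itga6, which pairs with Itgb1 or Itgb4, was higher in BAT in day 4 control, as given below. Lamb3 and Itgb4 were called lower in BAT in day 4 control (-0.72 and -0.73) and in day 4 with EGCG (-1.01 and -1.07). Lama5 differed by -0.83 ± 0.119 SE, limma adjusted p = 0.000156, in day 4 with EGCG, and Itga3 by -0.52 ± 0.139 SE, limma adjusted p = 0.00943, which was -0.37 (limma adjusted p = 0.0947) without BAT replicate 1 and -0.30 (limma adjusted p = 0.103) without WAT replicate 1. Epithelial and mesothelial markers (7 genes, 5 tested) differed in the same direction, with 4 of 5 lower in BAT in day 4 control, 3 lower and 1 higher in day 8 control and 4 lower in each EGCG comparison. Their sum was 30.02 to 54.2 FPKM in WAT and 0.568 to 1.07 in BAT day 4 control, and 49.8 to 141 and 2.71 to 3.81 in day 4 with EGCG. Krt8 and Epcam were at or near 0 in BAT controls. The part of such cells in the values of Lamb3, Itgb4, Itga3 and Lama5 was not tested.

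Of the integrins, the collagen receptor Itga1 stood higher in BAT. Itga1 read 8.99, 6.26 and 5.80 FPKM in WAT and 21.9, 20.9 and 16.4 in BAT day 8 control (1.39 ± 0.116 SE, limma adjusted p = 1.54e-06), and with differences of 0.60 ± 0.116 SE, limma adjusted p = 0.00110 in day 4 control and 0.996 ± 0.116 SE, limma adjusted p = 3.16e-05 in day 4 with EGCG. Itga6 was higher in BAT day 4 control, at 17.4, 21.5 and 18.3 FPKM against 8.90, 8.06 and 9.002 (1.10 ± 0.0991 SE, limma adjusted p = 4.65e-06). Itga7 was higher by 0.60 ± 0.0618 SE, limma adjusted p = 8.57e-06 in day 8 control. Itga9 was higher by 0.69 ± 0.0740 SE, limma adjusted p = 1.72e-05 in day 4 control and 0.79 ± 0.0740 SE, limma adjusted p = 5.71e-06 in day 4 with EGCG. Itgb3 was lower in BAT in control cells. It differed by -0.67 ± 0.0755 SE, limma adjusted p = 2.41e-05 in day 4 control and -0.76 ± 0.0755 SE, limma adjusted p = 6.16e-06 in day 8 control, and Itga5 by -0.60 ± 0.0729 SE, limma adjusted p = 3.33e-05, in day 8 control. Itgb5 turned with treatment, with a difference of -0.50 ± 0.0874 SE, limma adjusted p = 0.000528 in day 4 control and of 0.54 ± 0.0874 SE, limma adjusted p = 0.000375 in day 4 with EGCG. Itgb1, not called in control cells (0.07 and -0.02), was higher in BAT by 0.58 ± 0.0419 SE, limma adjusted p = 8.86e-07 in day 4 with EGCG. Itga11 differed by -0.58 ± 0.142 SE, limma adjusted p = 0.00550, in day 4 with EGCG, and Itgav higher by 0.56 ± 0.0854 SE, limma adjusted p = 0.000386, in day 8 with EGCG.

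**Figure D5:**
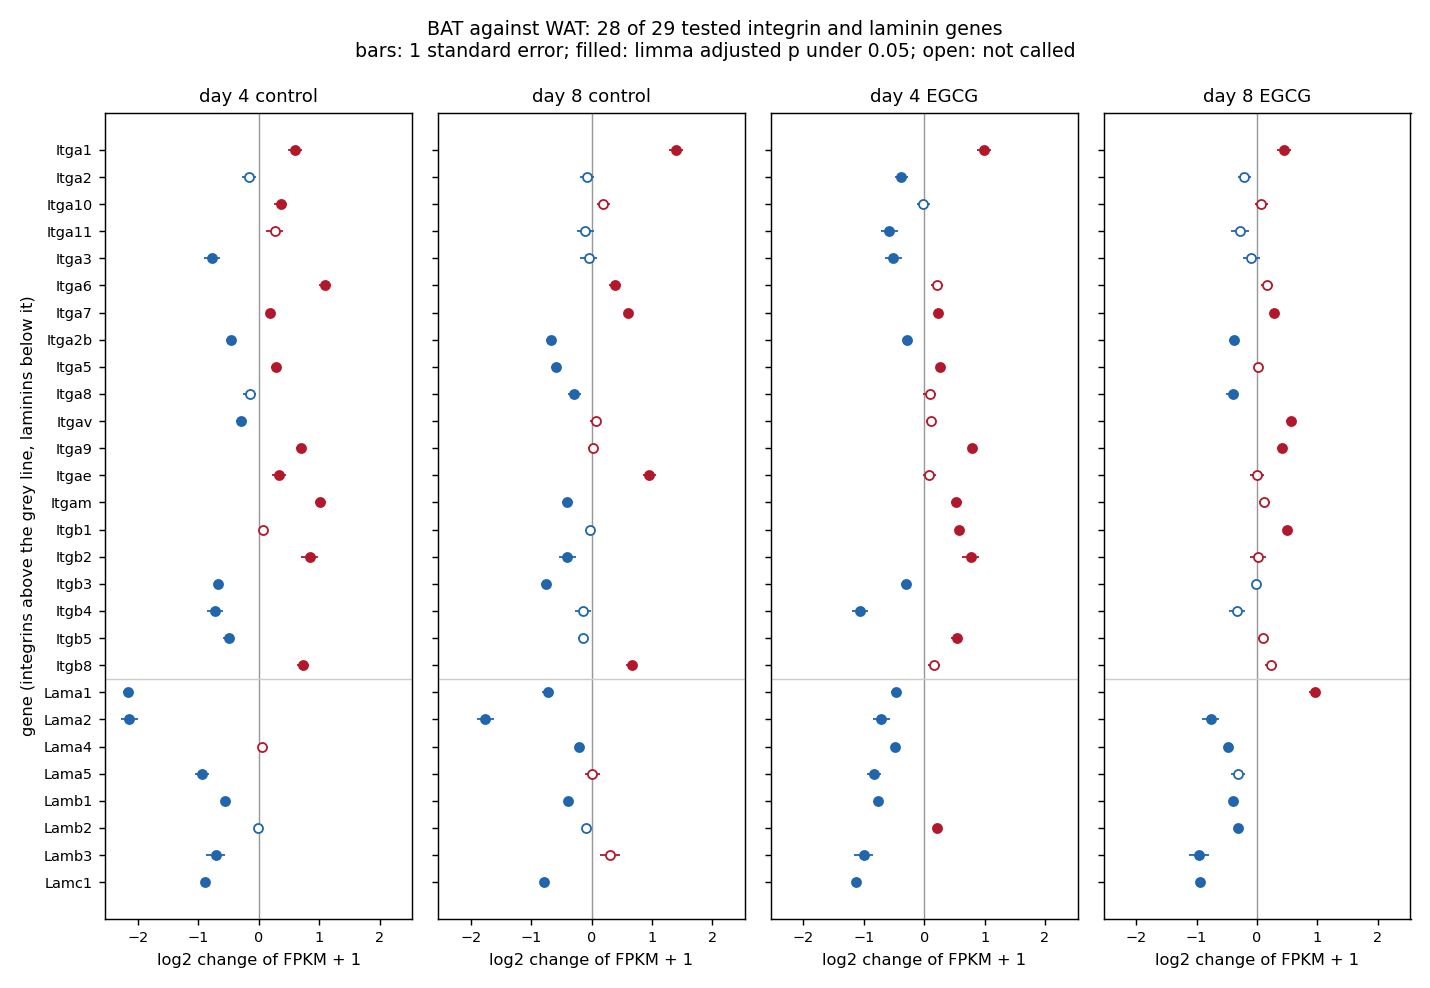
Log2 difference of FPKM + 1 between BAT and WAT for 28 of the 29 tested integrin and laminin genes in control and EGCG cells on each day, with 1 standard error; filled points passed an adjusted p under 0.05. Most laminins lie to the left of 0 (lower in BAT), with Lama2 at -2.15 in day 4 control, and Itga1 lies to the right in all 4 panels.

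The other 8 members did not pass the filter: Itga4, Itgad, Itgal, Itgax, Itgb6, Itgb7, Lama3 and Lamc3. Their highest value in replicates 1 and 2 was 0.723 FPKM, that of Lama3 in WAT day 4 with EGCG, and no test was made on them. Itga4, a lymphocyte receptor for Vcam1 and fibronectin, ranged from 0.0278 and 0.0308 FPKM in WAT day 4 control to 0.415 and 0.417 in BAT day 8 with EGCG. Itgb6, an epithelial chain, was listed at 0.476, 0.393 and 0.595 FPKM in WAT day 4 with EGCG and at 0.00517, 0 and 0 in BAT day 4 control.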

How the data were processed

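Total RNA of 24 cultures had been sequenced (8 groups of 3). The authors deposited FPKM per gene in 2 tables, replicates 1 and 2 in 1 and replicate 3 in the other, with gene lengths beside them. The submitters' processing notes name FastQC 0.11.9, HISAT2 2.2.0, HTSeq 0.11 and mm9, and strandedness is not given in the sources used here. All 37310 identifiers matched GENCODE vM1 (NCBIM37), which gave symbols and positions. From the gene lengths, 100% of values were whole reads within 0.01, and 3 reads or fewer were taken as at or under the floor.

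Replicates 1 and 2 were tested with limma 3.58.1 (R 4.3.3) on log2(FPKM + 1), a scale that understates the change of low genes. All 8 groups shared 1 spread (8 residual degrees of freedom), and 14095 genes had 1 FPKM in at least 2 of 16 libraries. p-values are two-sided and adjusted over all tested genes by Benjamini and Hochberg within each of 16 contrasts, with calls under 0.05. Members named with full statistics were called, changed by at least 0.5 and reached a mean of 5 FPKM, or for interactions were called with a difference of at least 1. For the 3 pathway lists the highest and lowest called genes are named. Replicate 3 was deposited in another table, which differed from the first for some genes. Its values are shown and were not tested with the others, except in the alternatives with all 3 replicates. Other members were named after their values were seen. The values of 1 tested member are not reported here, although it is in the counts and sums.

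The rule for the members used symbols only, but it and the lists were set with earlier results of these data known. The method was tested on simulated data of EGCG and control in WAT day 4 (13164 genes), where 95.9% of 193 changed genes and 10 of 12971 unchanged genes were called. Far fewer genes were changed there than were called in the real comparison (34.4% higher and 19.3% lower). The simulation therefore does not give the rate of false calls under so wide a change. Alternatives were other pseudocounts, filters and scalings, a replicate block, each replicate left out, no mean-variance trend, and all 3 replicates. The fit of all 3 replicates with median-ratio scaling was chosen after seeing the data. Figures used Python 3.11.15.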

Additional observations from a re-analysis of the deposited data

Results flagged for a closer look

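The effect of EGCG differed between depots or days by a limma interaction test for 13 named results. Between the depots on day 4, the EGCG change in BAT minus that in WAT was 1.44 for Lama2, 1.04 for Itgb5 and 1.70 for Lama1. On day 8 it was 1.68 for Lama1 and -1.26 for Lamb3. Between the days in WAT, the change on day 8 minus that on day 4 was 1.51 for Itgb5, -1.97 for Itgam and -2.38 for Itga11. Between the days in BAT it was -1.06 for Itga3, -1.22 for Lama5, -1.18 for Lamb3, -1.72 for Itga11 and -2.14 for Itga1.

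The values for Lamb3, Itgam and Lama5 came from genes near or under 1 FPKM in at least 1 group and grew with a pseudocount of 0.1. Lamb3 became -3.27 between the depots on day 8, and Itgam became -3.56 between the days in WAT. Itgae, which passed the filter only through BAT day 8 control, is left out here. No group had 4 or more libraries in a table, so no library was tested for standing apart from its group.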

How the results depend on the processing

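All 109 named changes kept their sign under every alternative run. Of 1578 alternative values, 1555 stayed on their side of the threshold and 23 lost the call, 18 of these in the fit of all 3 replicates of both tables. In that fit, which holds the table and number as a replicate block and takes replicate 3 as deposited, the calls were 12 for EGCG in WAT day 4, 13 in BAT day 8, 11 for the days in WAT control and 11 in BAT with EGCG, 11 for the depots in day 8 control and 13 in day 4 with EGCG. The interactions had 2 and 7 calls between depots on day 4 and day 8, and 11 and 8 between days in WAT and BAT. With the WAT day 8 EGCG library of replicate 3 left out of it, no count moved by over 1.5 times. A filter of 5 FPKM, which tested fewer members, left 15 calls between depots in day 4 control and 11 in day 8 control. Leaving out 1 replicate gave 16 to 19 calls for EGCG in WAT day 4, 17 to 19 in WAT day 8, 16 to 18 in BAT day 4 and 18 to 20 in BAT day 8. No shared deviation of same-numbered libraries was seen in replicates 1 and 2: their differences correlated from -0.079 to 0.081 over 28 pairs of groups. Whether same-numbered libraries came from the same isolation of cells is not given in the labels. A replicate block in replicates 1 and 2 kept all 109 named calls, with 19 calls for EGCG in WAT day 4 and 22 in BAT day 8. For the 8 members under the filter, at up to 330 reads a library, a difference was not tested at this depth.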
